A study of Danio rerio with 8 samples.

Results

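Notch pathway genes and the Her, Hes and Hey families, which hold known Notch targets, were compared between the cornea and skin epidermis of adult zebrafish. They were picked by symbol alone: Notch receptors, Delta and Jagged ligands, her, hes and hey genes, mind bomb, RBPJ, Numb, fringe, Deltex and presenilin genes. This gave 44 of the 14462 genes with a name, and 81 probes. The rule uses no measured value, although it was written with earlier results of these data known.

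Each array held labelled RNA from both tissues, one in Cy5 and the other in Cy3, of adult fish of the AB2O2 wild type strain killed with the anaesthetic MESAB. The 8 arrays formed 4 biological repeats of a dye-swapped pair each, and slides 1 and 2 carried 2 repeats apiece. The corneae of a repeat came from a pool of 30 globes, dissected free of lens, iris, retina and sclera. The epidermis was not separated from the scraped scales, whose own cells may therefore be present. Every value is a log2 ratio of cornea over epidermis, averaged over the probes of a gene and over both arrays of a repeat, so that a value of 1 is a doubling if the logarithm has base 2, as is usual for the software that made the values.

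The arrays gave ratios and no levels, so it is not known which probes were above background, and levels of different genes cannot be compared. Single arrays of the same repeat with exchanged dyes correlated at r between 0.390 and 0.515 across features. Different repeats, each as the mean of its arrays, correlated at r between 0.544 and 0.703. The first range is of single arrays and the second of averages, so they cannot be set against each other. Every array had a median within 0.019 of 0. That values above 0 mean higher in cornea is an inference from the tissue order of the labels and from marker genes: 7 of 7 genes listed for cornea (among them pax6b and kera) lay above 0, between 1.16 and 4.09, and 5 of 5 listed for epidermis and scale lay below 0, between −5.35 and −1.95. Both lists were chosen with earlier results of these data known, so their signs are no independent check of the direction. The pairing of values with gene names uses a layout of the array inferred from these values, in which the first 2 probes of 5098 genes correlated at r = 0.340, against 0.0190 with the numbering as given. If that layout is wrong, no gene name below holds. In whole tissue, fewer cells of a type and less RNA per cell cannot be told apart.

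Notch receptors are membrane proteins that are activated by Delta and Jagged ligands on a neighbouring cell. Ligand binding lets ADAM proteases and then the γ-secretase complex cut the receptor, and the freed intracellular domain joins the DNA-binding protein RBPJ to switch on targets, of which the best known are repressors of the Hes and Hey families (called her, hes and hey in fish). In epithelia the pathway is known for setting the choice between dividing and differentiating cells, in mammalian epidermis and cornea as well, and in blood vessels for arterial identity.

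A gene was called where its adjusted p was under 0.05 in the fit across all 14462 genes. By this rule 7 of the 44 Notch pathway and Her/Hey genes were higher in cornea, 10 were lower and 27 were not called. Over all genes 22.9% were called higher and 13.8% lower, so the shares here, 15.9% and 22.7%, were tilted the other way, a difference for which no test was made. The median log2 ratio of the 44 genes was −0.05, beside 0.03 for all genes. The genes called lower were hey1, dtx3la, heyl, notch1a, psenen, hey2, dll4, her15.2, her6 and mfng, and those called higher were lfng, jag1b, dld, rbpja, notch2, mib1 and her12. Among those called, 7 of the 10 lower genes and 2 of the 7 higher genes differed by more than 2-fold. How many of all called genes did so was not computed, so these counts have no comparison and cannot be read as particular to these genes. With the stricter rule of an adjusted p under 0.001 and a change over 2-fold, which 6.64% of all genes met upwards and 2.18% downwards, 1 gene (lfng) was higher and 4 (hey1, psenen, hey2 and dll4) were lower. Without repeat 3 the count of higher genes fell from 7 to 4, and on slide 1 alone 2 were higher and 6 lower. These fits hold fewer repeats, and the share of all genes called in them was not computed. The falls can therefore not be read as particular to these genes.

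**Figure D1:**
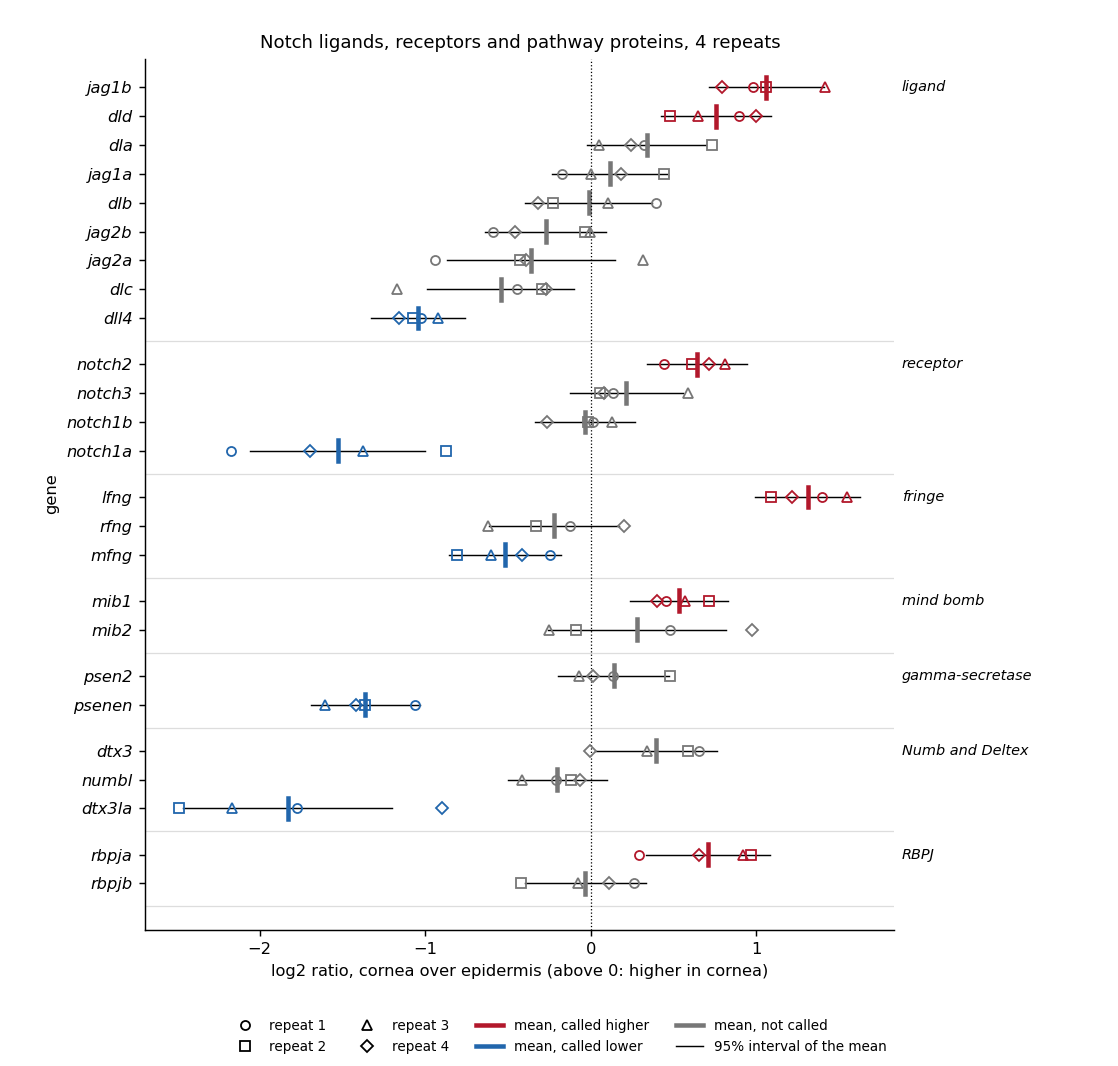
Log2 ratio of cornea over epidermis (horizontal axis) of the 25 ligand, receptor and other pathway genes, grouped by role; each symbol is 1 of 4 repeats, the thick bar is the mean and the thin line its 95% interval. All 4 repeats of lfng, jag1b, dld, notch2, mib1 and rbpja lie above 0, and all 4 of dtx3la, notch1a, psenen, dll4 and mfng lie below it. Genes that were not called do so too: dla and notch3 lie above 0 in all 4, and dlc, jag2b and numbl below it.

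Of the 9 ligand genes, 2 were higher in cornea, 1 was lower and 6 were not called, and these shares of 22.2% and 11.1% were close to those of all genes (22.9% and 13.8%). jag1b, a Jagged ligand, gave log2 ratios of 0.98, 1.06, 1.41 and 0.79 in repeats 1 to 4. All 4 repeats were above 0, with a mean of 1.06 ± 0.26 (SD, n = 4), which is 2.09-fold higher in cornea (adjusted p = 0.00193). Its 3 probes differed in size, at 0.34, 0.70 and 2.14, and the last 2 were called on their own. For dld, a Delta ligand, the repeats gave 0.89, 0.48, 0.65 and 1.00. They did not overlap 0 and had a mean of 0.76 ± 0.24 (adjusted p = 0.00651), carried mostly by 1 of its 2 probes, which lay at 1.36 beside 0.15 for the other.

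The ligand that was lower in cornea was dll4, the Delta ligand of arterial endothelium. Its log2 ratio was −1.02, −1.08, −0.92 and −1.16 in the 4 repeats. The spread was narrow, with a mean of −1.04 ± 0.10 (SD, n = 4), or 2.06-fold lower in cornea (adjusted p = 0.000931). It had 1 probe.

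The other ligands did not pass the test. dlc gave −0.44, −0.30, −1.17 and −0.27, below 0 in every repeat, with repeat 3 far lower than the rest, and a mean of −0.55 ± 0.42 (adjusted p = 0.0602). With the median over its 3 probes in place of the mean, dlc passed at −0.66 (adjusted p = 0.0491). Those probes lay at −1.15, −0.67 and 0.19, and none was called on its own. dla gave 0.32, 0.73, 0.05 and 0.24, all above 0, with a mean of 0.34 ± 0.29 (adjusted p = 0.129) and 1 of 3 probes called on its own at 0.75. jag2b was at −0.59, −0.04, −0.01 and −0.46, where repeats 2 and 3 lay near 0 (mean −0.27 ± 0.30, adjusted p = 0.210). One of the 4 jag2b probes was called lower at −0.69, and the others, not called, lay at −0.37, −0.35 and 0.32.

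The remaining ligands lay on both sides of 0. jag2a read −0.94, −0.43, 0.32 and −0.39 (mean −0.36 ± 0.52, adjusted p = 0.230), with only repeat 3 above 0. dlb read 0.40, −0.23, 0.10 and −0.32 (mean −0.01 ± 0.33, adjusted p = 0.962), and its 95% interval ran from −0.39 to 0.37. jag1a, the copy of jag1b, read −0.17, 0.44, 0.00 and 0.18 (mean 0.11 ± 0.26, adjusted p = 0.576), with an interval from −0.23 to 0.46.

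The 4 receptor genes did not move together. notch1a was 2.89-fold lower in cornea: its repeats gave −2.17, −0.87, −1.37 and −1.70, all below 0 but spread over more than 1 log2 unit, with a mean of −1.53 ± 0.55 (adjusted p = 0.00242) from 1 probe. notch2 was 1.56-fold higher, with 0.44, 0.61, 0.81 and 0.71 in the repeats and a mean of 0.64 ± 0.16 (adjusted p = 0.00821). That mean rests on 1 of 4 probes, at 1.87, while the others lay at −0.03, 0.29 and 0.43 and were not called. notch1b read 0.01, −0.02, 0.13 and −0.26, with repeats on both sides of 0 (mean −0.03 ± 0.17, 95% interval −0.34 to 0.27, adjusted p = 0.859). That mean averages 3 probes that differed in sign, at −0.33, −0.23 and 0.46, none of them called. notch3, known from vascular smooth muscle and pericytes, read 0.13, 0.06, 0.59 and 0.08, with repeat 3 above the others (mean 0.21 ± 0.25, adjusted p = 0.288).

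Fringe enzymes add a sugar to Notch in the Golgi and so set which ligands it answers to. The 3 fringe genes had different ratios. lfng was the highest of the 44 genes and ranked 917 among all 14462: its repeats gave 1.39, 1.09, 1.55 and 1.22, close together, with a mean of 1.31 ± 0.20, or 2.48-fold higher in cornea (adjusted p = 0.000634, 1 probe). mfng gave −0.25, −0.81, −0.60 and −0.41, below 0 throughout, with a mean of −0.52 ± 0.24 (adjusted p = 0.0283). Its 4 probes all lay below 0, between −0.63 and −0.27, and 1 was called. The call was lost without repeat 2, 3 or 4 (adjusted p = 0.0933, 0.105 and 0.0756). rfng was not called (mean −0.22 ± 0.35), although 1 of its 3 probes was called lower at −0.73.

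Mind bomb proteins are ubiquitin ligases that let a cell take up its own ligands, a step needed for ligand activity. mib1 gave 0.45, 0.72, 0.57 and 0.40 in the repeats, all above 0, with a mean of 0.53 ± 0.14 (adjusted p = 0.0157); without repeat 2 or 3 it no longer passed (adjusted p = 0.0573 and 0.0680). mib2 spread from −0.25 to 0.98 and was not called.

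Of the γ-secretase genes in the set, psenen, which encodes the small presenilin enhancer subunit of the complex, was 2.57-fold lower in cornea. Its repeats gave −1.06, −1.36, −1.60 and −1.42, a narrow range well below 0, with a mean of −1.36 ± 0.22 (adjusted p = 0.000624, 1 probe). psen2, a catalytic presenilin, had a mean of 0.14 ± 0.24 and was not called. Its 2 probes lay on opposite sides of 0, at −0.48 and 0.75, of which the higher was called on its own.

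Numb and Deltex proteins act on the receptor inside the cell. dtx3la, a Deltex family gene whose mammalian counterpart is better known from DNA damage and interferon responses than from Notch, gave −1.78, −2.49, −2.17 and −0.90. Every repeat was below 0 and repeat 4 was the least so, with a mean of −1.83 ± 0.69, or 3.56-fold lower in cornea (adjusted p = 0.00238, 1 probe). dtx3 (mean 0.39 ± 0.30) and numbl (mean −0.20 ± 0.15) were not called.

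RBPJ is the DNA-binding partner of the cut receptor. rbpja gave 0.29, 0.97, 0.92 and 0.65, with repeat 1 the lowest and all above 0, and had a mean of 0.71 ± 0.31 (adjusted p = 0.0131, 1 probe). Without repeat 3 its adjusted p was 0.0600. The other copy, rbpjb, had 2 repeats above 0 and 2 below, and a mean of −0.03 ± 0.29 with an interval from −0.40 to 0.33.

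**Figure D2:**
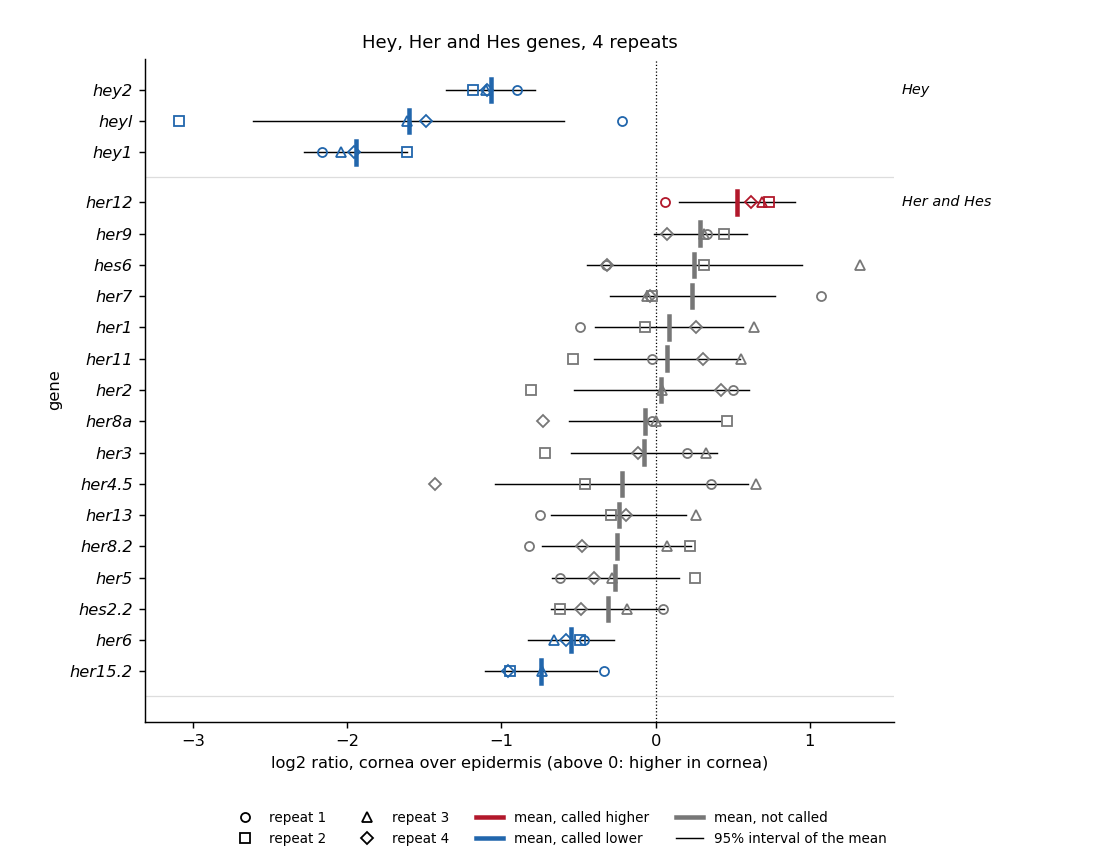
Log2 ratio of cornea over epidermis (horizontal axis) of the 3 hey genes and the 16 her and hes genes; symbols are the 4 repeats, thick bars the means and thin lines their 95% intervals. All repeats of the 3 hey genes lie below 0, and 12 of the 13 her and hes genes that were not called have repeats on both sides of it.

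All 3 hey genes were called lower in cornea (100%, beside 13.8% of all genes), although the call of heyl was lost under 5 of 17 alternatives. Hey proteins are repressors that act downstream of Notch, best known from heart and artery. hey1 had the lowest mean of the 44 genes and ranked 14348 among 14462: the repeats gave −2.16, −1.61, −2.04 and −1.96, close together, with a mean of −1.94 ± 0.24 (SD, n = 4), or 3.85-fold lower (adjusted p = 0.000214). Both of its probes were called, at −2.59 and −1.30. hey2 gave −0.90, −1.18, −1.10 and −1.10, with a mean of −1.07 ± 0.12, or 2.10-fold lower (adjusted p = 0.000926), from 1 called probe at −1.64 and 1 that was not called at −0.50.

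heyl was the least certain of the 3. Its single probe gave −0.22, −3.09, −1.61 and −1.49 in the repeats, so that repeat 1 was near 0 and repeat 2 far below the others. The mean was −1.60 ± 1.18, the largest SD of the set (adjusted p = 0.0256). In repeat 1 the array with cornea in Cy5 read 0.55 and the array with exchanged dyes −0.98, and the other 6 arrays were all below 0. The call was lost without repeat 3 or repeat 4 (adjusted p = 0.0706 and 0.0746).

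Of the 16 her and hes genes 1 was called higher and 2 lower, or 6.25% and 12.5%, beside 22.9% and 13.8% of all genes. Several were measured with wide 95% intervals, as her4.5 (−1.04 to 0.60) and hes6 (−0.45 to 0.95), so that changes of that size cannot be seen here. The median log2 ratio was −0.07, and the SD between repeats had a median of 0.469, larger than the 0.310 of all genes. her15.2, of the group related to mammalian Hes5, gave −0.33, −0.94, −0.74 and −0.96, below 0 in every repeat, with a mean of −0.74 ± 0.29 (adjusted p = 0.00977). her6, related to Hes1, gave −0.46, −0.49, −0.66 and −0.58, with the smallest SD of the set (mean −0.55 ± 0.09, adjusted p = 0.0118), yet without repeat 3 or 4 it missed the threshold (adjusted p = 0.0622 and 0.0541).

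her12, also related to Hes5, was the her gene called higher. Repeat 1 lay near 0 at 0.06, while repeats 2 to 4 gave 0.73, 0.69 and 0.62 (mean 0.53 ± 0.31, adjusted p = 0.0397). This was the weakest call of the set: 6 of 8 arrays were above 0, and the call was lost without repeat 2, 3 or 4 (adjusted p = 0.122, 0.138 and 0.129) and in the fit of single arrays with a dye term and the repeat as a block (adjusted p = 0.215). It was also lost with the feature fit, where its only probe was not called.

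The other 13 her and hes genes had means between −0.31 (hes2.2) and 0.29 (her9), with single repeats from −1.43 (her4.5) to 1.33 (hes6). Among them are her1 and her7, which oscillate in the segmentation clock of the embryo, her5 and her11 of the midbrain-hindbrain boundary, and her3, her8a and her9 of the neural plate. her9 was the only one of the 13 with all 4 repeats above 0 (0.33, 0.45, 0.31 and 0.07), and the only gene of the 44 that was on 1 side of 0 on all 8 arrays without being called (mean 0.29 ± 0.16, adjusted p = 0.119).

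Many her genes stand next to each other in the genome, in pairs or runs that arose by duplication. In the RefSeq gene order, her1 neighbours her7 (means 0.09 and 0.24), her11 neighbours her5 (0.08 and −0.26), and her8.2 neighbours her13 (−0.25 and −0.24). None of these 6 genes was called. her2 (0.04) and her15.2 (−0.74) are separated only by her15.1, and her12 (0.53) and her4.5 (−0.22) by the other 4 her4 genes. The her15 and her4 copies are nearly identical, so which copies their probes read is uncertain.

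The a and b copies of 4 genes were both measured, and their difference was tested within repeats by an exact sign-flip permutation test, two-sided, which with 4 repeats cannot go below the p of 0.13 that the first pair reached. notch1a was below notch1b in all 4 repeats, by differences of −2.19, −0.86, −1.51 and −1.43 (mean −1.50 ± 0.55; exact p = 0.13, adjusted over the 4 pairs 0.167). jag1a was below jag1b in all 4, with a mean difference of −0.95 ± 0.40, and rbpja was above rbpjb in all 4, with a mean difference of 0.74 ± 0.58 (each exact p = 0.13, adjusted 0.167). For jag2a and jag2b the difference changed sign between repeats (mean −0.09 ± 0.34, exact p = 0.625, adjusted 0.625). No pair could pass in this design, and the copies of a pair were read by different probes.

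**Figure D3:**
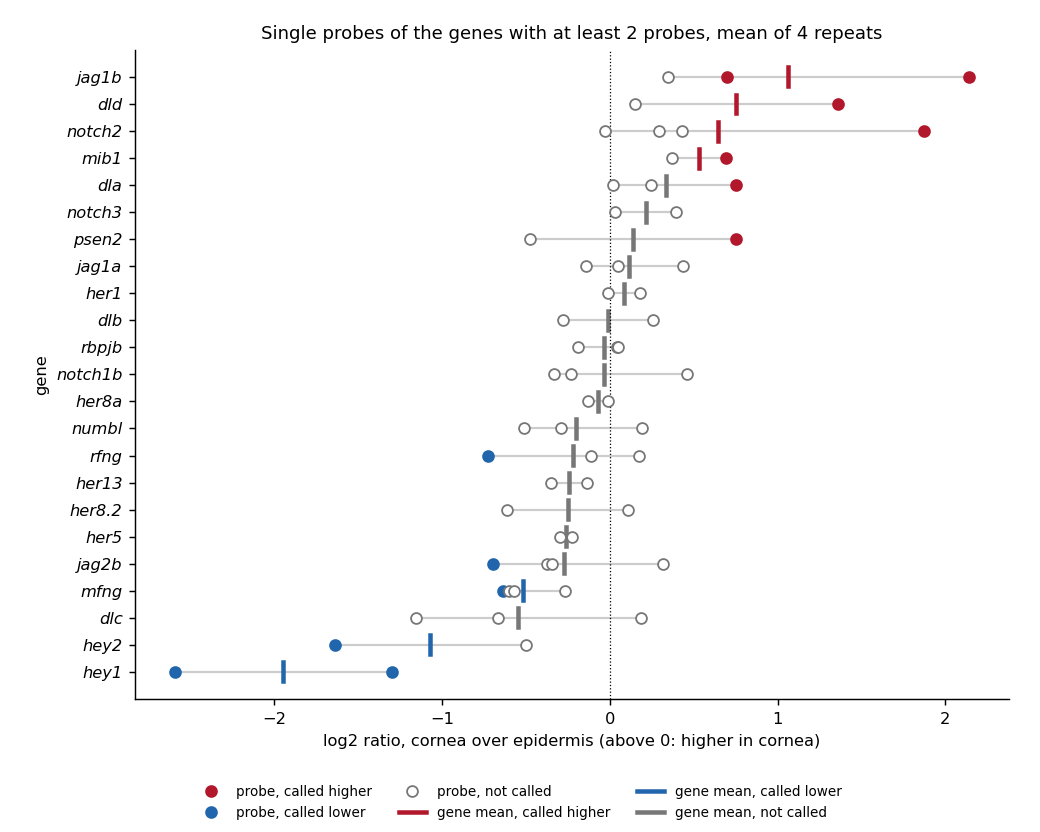
Mean log2 ratio over 4 repeats (horizontal axis) of every probe of the 23 genes with at least 2 probes; circles are probes, filled where called in the fit of all features, and bars are gene means. The probes of hey1, mfng and jag1b each lie on 1 side of 0, while 1 probe of notch2 at 1.87 stands apart from its other 3.

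Probes of the same gene were set side by side, since each was tested on its own in a fit of all features. Of the 81 probes, 9 were called higher and 13 lower, where 14% and 10.4% of all features were called. All features include 24159 without a symbol, whose mean ratios spread less (SD 0.652, beside 0.864 of the named ones). The shares among named features alone were not computed, so the 81 probes are set against an unlike set. Of the 23 genes with at least 2 probes, 11 had all probes on 1 side of 0, and none had probes called in both directions. The shares among all genes with at least 2 probes were not computed. Probes can also fall on 1 side by chance, so the 11 do not show that probes agree. The widest gaps between probes of 1 gene were in notch2 (1.90 log2 units), jag1b (1.80), dlc (1.34) and hey1 (1.29). The other 21 genes had 1 probe each, among them 7 of the 10 genes called lower and 3 of the 7 called higher, and have no such check.

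**Figure D4:**
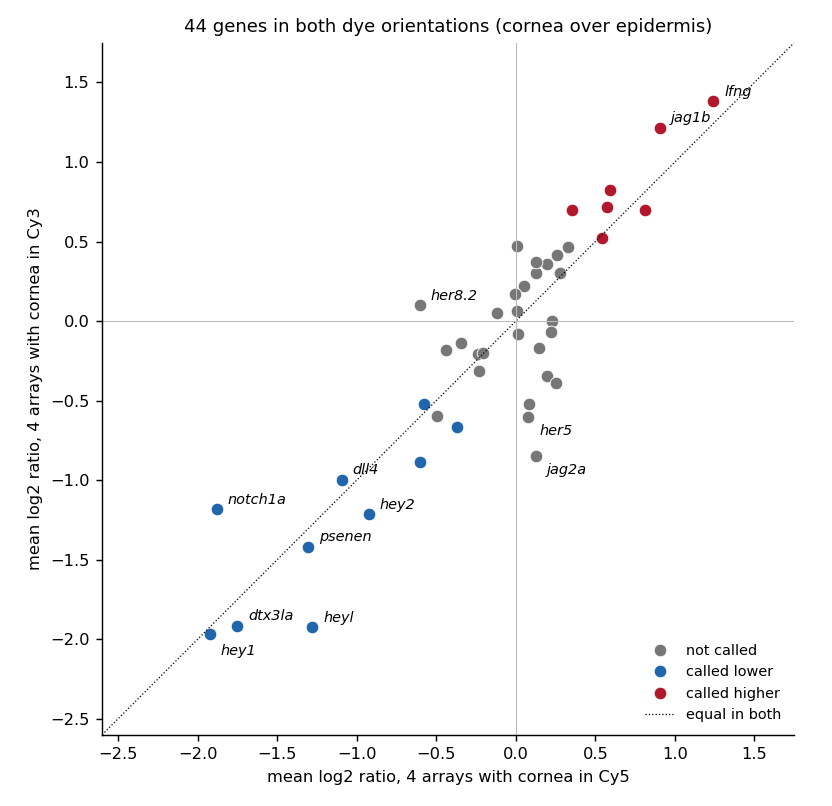
Mean log2 ratio over the 4 arrays with cornea in Cy5 (horizontal axis) and over the 4 arrays with cornea in Cy3 (vertical axis) of the 44 genes; the dotted line marks equal values. The calls use the mean of both axes, and jag2a lies farthest below the line near 0.

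The dye swap allows a test of whether a gene moved with the dye. The difference between orientations was called for 0% of the genes tested: limma called 0 of 14462. At an unadjusted p under 0.05 were 1735 of all genes (12%) and 4 of the 44 here (9.09%), namely jag2a, notch1a, jag1b and her8.2. The 12% is more than that threshold gives by chance, so genes that were not called may still move with the dye. jag2a read 0.12 with cornea in Cy5 and −0.85 with cornea in Cy3, and notch1a read −1.88 and −1.18.

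dll4 and hey2 are known from the arteries of zebrafish, so vessel markers were read beside them and the other hey genes. Of 10 listed markers of vascular endothelium 7 were measured, with log2 ratios from −1.72 to 0.67 and a median of −0.39. In cornea 4 were lower (57.1%, beside 13.8% of all genes), namely pecam1a (−1.72), egfl7 (−1.50), tek (−0.96) and kdrl (−0.39). One, flt4 of lymphatic and venous vessels, was higher (0.67; 14.3%, beside 22.9%), and kdr (−0.25) and the junction gene cdh5 (−0.06) were not called. All 4 repeats of pecam1a, egfl7, tek and kdrl were below 0, as were those of every Notch pathway and Her/Hey gene called lower. The calls were made from the same repeats, so this adds no separate evidence and is not particular to dll4 and the 3 hey genes. By contrast, all 4 repeats of flt4 were above 0, as were 3 of cdh5 and 1 of kdr. Markers of other cells moved as well, though not in every list. Of 3 leukocyte markers measured, mpeg1.1 (−1.61) and coro1a (−0.99) were lower (66.7%, beside 13.8% of all genes) and lcp1 (0.87) was higher (33.3%, beside 22.9%). Of 4 osteoblast markers, bglap (−1.39) and col10a1a (−1.66) were lower (50%, beside 13.8%), and sp7 (−0.12) and entpd5a (0.12) were not called. All 3 muscle markers measured were higher in cornea (100%, beside 22.9%), ckma at 1.78, mylpfa at 1.54 and acta1b at 0.68. The markers are ratios too, so their level in either tissue is unknown, and the part of these cells in the ratios of the Notch pathway and Her/Hey genes was not tested.

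**Figure D5:**
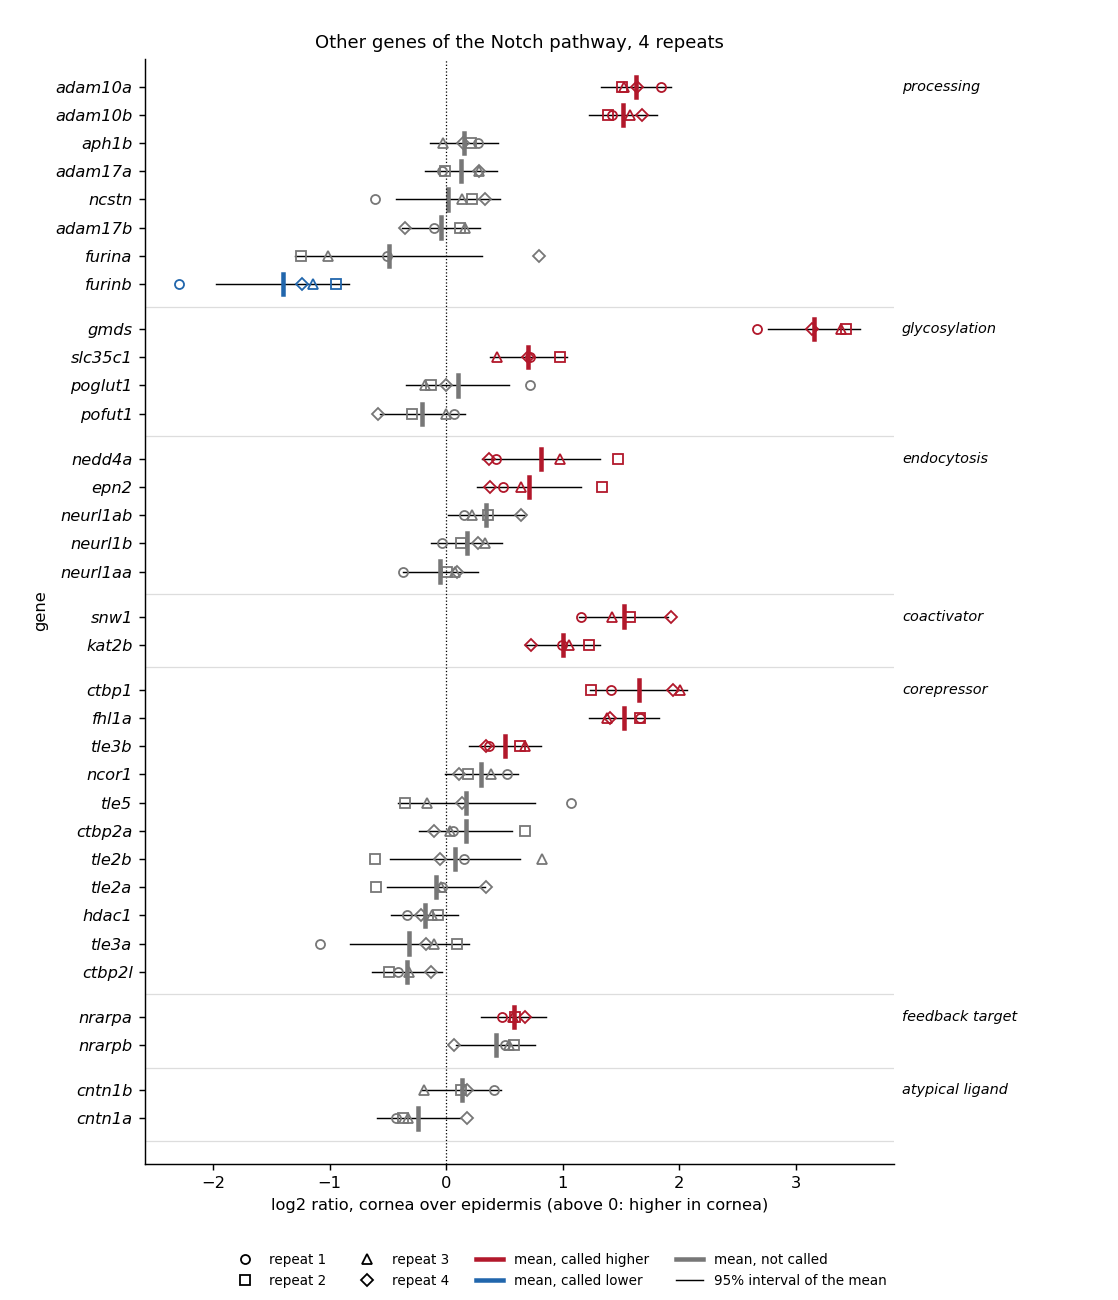
Log2 ratio of cornea over epidermis (horizontal axis) of 34 other genes of the Notch pathway, grouped by step; symbols are the 4 repeats, thick bars the means and thin lines their 95% intervals. All 12 genes called higher have 4 repeats above 0, as do ncor1, neurl1ab and nrarpb, which were not called. The only gene called lower is furinb.

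Of 63 other listed genes of the pathway 34 were measured. In cornea 12 were higher, 1 was lower and 21 were not called, that is 35.3% and 2.94% of the 34, beside 22.9% and 13.8% of all genes, and their median log2 ratio was 0.17. Among the proteases that cut the receptor, both copies of Adam10, the enzyme that makes the ligand-dependent cut, were higher: adam10a gave 1.84, 1.51, 1.53 and 1.64 (mean 1.63 ± 0.15, adjusted p = 0.000249) and adam10b 1.42, 1.39, 1.58 and 1.68 (mean 1.52 ± 0.14, adjusted p = 0.000286). Neither copy of Adam17 was called. furinb, a convertase of the kind that cuts mammalian Notch on its way to the membrane, was lower with −2.29, −0.94, −1.14 and −1.24 (mean −1.40 ± 0.60, adjusted p = 0.00457, 1 probe). The other copy, furina, was not called (mean −0.49 ± 0.91, adjusted p = 0.296), with repeat 4 at 0.79. The γ-secretase genes ncstn (0.02) and aph1b (0.15) were not called, unlike psenen.

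The highest of these genes was gmds, an enzyme that makes the GDP-fucose used to put fucose on Notch and on many other proteins. It gave 2.67, 3.43, 3.39 and 3.14 (mean 3.16 ± 0.35, 8.92-fold higher, adjusted p = 8.79e-05), and slc35c1, which carries GDP-fucose into the Golgi, was also higher (0.71 ± 0.22). Pofut1, which places the fucose that fringe extends, was not called (pofut1, −0.20 ± 0.30). The second highest was ctbp1, a corepressor, at 1.65 ± 0.38. Of 11 corepressor genes measured 3 (ctbp1, fhl1a and tle3b) were higher and none lower. Their 27.3% higher was close to the 22.9% of all genes, and their 0% lower stood beside 13.8%. Only 2 of 11 listed coactivator genes were measured, and both, snw1 (1.52 ± 0.32) and kat2b (1.00 ± 0.21), were higher (100%, beside 22.9% of all genes). So were epn2 (0.71 ± 0.43) and nedd4a (0.81 ± 0.52). They are 40%, beside 22.9%, of the 5 endocytosis and ubiquitin ligase genes measured, out of 12 listed.

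Nrarp genes are direct Notch targets whose product feeds back on the pathway, so they give a reading beside the her and hey genes. nrarpa gave 0.48, 0.59, 0.57 and 0.68, close together and above 0, with a mean of 0.58 ± 0.08 (adjusted p = 0.00934). nrarpb gave 0.51, 0.58, 0.54 and 0.07, with repeat 4 lower than the rest, and a mean of 0.42 ± 0.24 (adjusted p = 0.0551).

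Proneural factors, which Her and Hes proteins repress in the embryonic nervous system, were read from a separate list of 11 genes, of which 10 were measured. neurod1 was higher in cornea at 1.11, 1.45, 1.70 and 2.40 (mean 1.66 ± 0.54, adjusted p = 0.00169), and ascl1b at 1.23, 0.51, 0.79 and 1.15 (mean 0.92 ± 0.33, adjusted p = 0.00535). The other 8 were not called, and 2 of 10 is 20%, below the 22.9% of all genes called higher. Of 9 listed genes of retina neurons, photoreceptors and dividing retinal cells 7 were measured. Among them gnat2 of cones (2.69) and pcna (1.21), which all dividing cells share, were called higher (28.6%, beside 22.9% of all genes). The other 5 lay between −0.11 and 0.51. The part of retinal RNA in the proneural ratios was not tested.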

How the data were processed

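The authors hybridised labelled cornea and epidermis RNA on 8 Agilent 2-colour arrays and used limma, of a version not given in the sources used here, for background correction (minimum method), normalisation within arrays and quantile normalisation of average intensities between them. Every feature has a deposited log2 ratio on every array; the base is limma's convention and is not stated with them. Control spots could not be told apart and stayed in the feature fit.

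Gene symbols came from the platform annotation (21061 features with 1 symbol, 0 with several, 24159 with none), placed on a grid of 532 by 85 positions found from the data. Probes of a gene were averaged. Both arrays of a repeat hold the same extracts and were averaged, so n = 4. In R 4.3.3, limma 3.58.1 tested whether the mean ratio of each gene differed from 0 (lmFit, then eBayes; two-sided; Benjamini-Hochberg over all genes), and genes were called at an adjusted p under 0.05, after the code had been tested on simulated data; intervals are 95% and unadjusted. The number of arrays limits the precision. The R package data.table (version 1.17.8) read the values, and pandas 2.3.3, numpy 2.4.6 and matplotlib 3.10.9 under Python 3.11.15 made the summaries and figures. All 44 genes were found in RefSeq's gene annotation (GRCz12tu), used for names and gene order only.

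Genes given repeat by repeat were those called, plus all ligands and receptors. Of the other pathway genes, the called ones with the 3 highest and 3 lowest means were to be named, with any other the text needed. The 44 genes and all lists were chosen with earlier results of these data known. Alternatives were the summary over probes, centring, scaling, dye orientation, slide, replicate block, call rule and leaving out each repeat.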

Additional observations from a re-analysis of the deposited data

Results flagged for a closer look

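In each of the 44 genes the highest and lowest of 4 repeats were set against the others, and a repeat was listed where its gap to the nearest other exceeded the 95% critical share of the whole range in Dixon's test. Chance alone lists about 1 in 20 groups, and 2 of the 44 genes were listed. her7, a gene of the segmentation clock, read 1.07 in repeat 1 while its other 3 repeats lay between −0.06 and −0.02 (gap 0.968 of the range). notch3 read 0.59 in repeat 3, while the others lay between 0.06 and 0.13 (gap 0.857). Neither gene was called.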

How the results depend on the processing

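All 17 called genes kept their sign under all 17 alternatives, but for some alternatives this was fixed, as they keep the same mean. These were the stricter rule, TREAT against a 1.2-fold change, the slide block, and the dye term with the replicate block. Summaries over probes likewise cannot change genes with 1 probe. With each probe tested on its own, only called probes set the sign, so the probe of notch2 at −0.03 did not count. The calls of lfng, hey1, hey2, psenen and dll4 held under every one. Among probes tested singly, a call counted as held where at least 1 probe was called and none in the other direction. So hey2 counted as held although its probe at −0.50 was not called, and lfng, psenen and dll4 had only 1 probe. The 7 genes called higher became 2 on slide 1 alone, 4 with TREAT against a 1.2-fold change and 1 with an adjusted p under 0.001 and over 2-fold. The 10 called lower became 6 on slide 1 alone and 4 with the stricter rule. Leaving out 1 repeat gave 4 to 7 higher and 7 to 10 lower genes. With a dye term and the replicate block 7 were higher and 10 lower, with her12 lost and her9 gained as a gene called higher. The other pathway genes called higher (12), whose alternatives were added after seeing the data, became 7 on slide 1, 7 on slide 2, 6 with the stricter rule and 9 to 12 without 1 repeat. Those called lower (1) became 2 with cornea in Cy5 only, 2 with each probe tested on its own, 0 with the stricter rule and 1 to 2 without 1 repeat. For the fits on 1 slide, with TREAT or without 1 repeat, the share of all genes called was not computed, so these counts have no such comparison. Among the 25 genes given repeat by repeat, signs changed in 4 that were not called. jag2a read 0.12 with cornea in Cy5 only, and jag1a −0.0015 with cornea in Cy3 only. notch1b read 0.015 with cornea in Cy5 only and −0.0891 to 0.0427 without 1 repeat. dlb read 0.26 from its probe of smallest variance, 0.0058 with arrays scaled to 1 SD, 0.14 with cornea in Cy5 only, 0.085 on slide 1, and −0.148 to 0.0910 without 1 repeat. From the probe of smallest variance, dld (0.15, adjusted p = 0.362), mfng (−0.27, adjusted p = 0.106) and mib1 (0.37, adjusted p = 0.0697) no longer passed. The cause of these changes was not tested. With ratios alone, what signal over background limits cannot be given.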
